A study of Mus musculus with 4 samples.

Results

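The changes described here lie in 7 genes that encode chromatin regulators: Dnmt1, Kmt2a, Kmt2b, Smarca4, Ncor1, Chd6 and Chd7. They are the rows with these gene symbols in the coding variant lists of 4 mouse tumour cell lines. The 7 genes carried 10 listed changes, out of 2013 listed variants in genes with 1555 different symbols. Of the 10 changes, 4 were in YUMM 1.3, 3 in UV YUMM 1.1-9, 2 in MB49 and 1 in YUMM 1.1. The genes were selected on their presence in these lists, that is, on read counts high enough for a change to be listed, so this presence is a description and not a finding. All 10 were single-base changes, 8 of them missense and 2 synonymous, and 0 gained a stop codon. Over all lists, 1365 of the 2013 variants were missense.

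These proteins set how DNA is packed and which genes are read. Dnmt1 is the maintenance DNA methyltransferase, which copies methyl marks onto the new strand after replication. Kmt2a and Kmt2b (MLL1 and MLL2) write methyl groups on lysine 4 of histone H3, a mark of active promoters, and Kmt2a is known for keeping Hox genes active. Smarca4 (BRG1) is an ATPase of the SWI/SNF complexes, which slide and evict nucleosomes, and Chd6 and Chd7 are ATP-dependent remodellers of the chromodomain helicase family. Ncor1 is a corepressor that brings histone deacetylase 3 to nuclear receptors. Several of these genes are mutated in human cancers, and CHD7 is the gene of the human developmental disorder CHARGE syndrome.

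UV YUMM 1.1-9 is set against YUMM 1.1 by the heading of its list, and YUMM 1.1 is taken as its parent. The YUMM lines come from melanomas of genetically engineered mice, and MB49 is a bladder carcinoma line from C57BL/6 mice obtained by carcinogen treatment. The labels give no genotype of the lines, no UV dose and no passage, and they name mouse tumours as the source while the extraction text names cultured lines. No label reads MB49, and its list was taken by elimination for the sample labelled 49XC-49. Each line was 1 exome library with no replicate, so intervals and tests below cover counting error and compare libraries only. Median depth at listed sites was 45 reads for UV YUMM 1.1-9, 107 for YUMM 1.3, 59 for MB49 and 70.0 for YUMM 1.1. The lists do not have the same floor. YUMM 1.1, YUMM 1.3 and MB49 held no site with fewer than 5 alternative reads. UV YUMM 1.1-9 went down to 3 and held only variants additional to YUMM 1.1. The lists of YUMM 1.1, YUMM 1.3 and MB49 give no reads of a comparison sample. In them, inherited differences from the reference cannot be told apart from changes that arose in the tumour or line.

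The DNA methyltransferase gene Dnmt1 (9:20907206-20959888 in mm10, minus strand) was changed in YUMM 1.3. At position 20912246 the codon Ccc became Gcc, with the changed base in capitals here and below, and proline 1140 became alanine (P1140A). In the full-length protein this position lies near the boundary between its second BAH domain and the C-terminal catalytic domain. The new base was seen in 26 of 37 reads, an allele fraction of 70.3% (exact 95% interval 53.0 to 84.1). The allele fraction is the number of reads with the new base over all reads at the site. It was the highest of the 10 changes, and 221 of the 225 variants of YUMM 1.3 had a lower one. Depth was low for this list: 10.7% of its variants were covered by fewer reads. SIFT, a predictor that scores a substitution by how far related proteins tolerate it, called the change deleterious with a score of 0.04. This was the deleterious call among the 8 missense changes; 1 other had a SIFT class.

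Both histone methyltransferase genes carried a missense change in the part of the protein that holds the PHD fingers, zinc-binding folds that read histone tails. In Kmt2a (9:44803355-44881352, minus strand) of MB49, the codon tGc became tTc at position 44836594 and cysteine 1478 became phenylalanine (C1478F). It had 17 of 43 reads, or 39.5% (24.98 to 55.6). In Kmt2b (7:30568855-30589056, minus strand) of YUMM 1.3, tTt became tGt at position 30581977 and phenylalanine 1223 became cysteine (F1223C). It had 7 of 45 reads, or 15.6% (6.49 to 29.5). Each scored -2 in BLOSUM62, a matrix in which negative scores mark pairs of amino acids that seldom replace each other. Scores of -2 or lower made up 31.7% of the 514 scored missense changes of MB49 and 33.5% of the 164 of YUMM 1.3. Dnmt1 P1140A scored -1, and 53.0% of the missense changes of YUMM 1.3 scored no higher. Whether the changed residue of Kmt2a or of Kmt2b binds zinc was not examined, since no protein sequence was used here.

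Kmt2a was also listed in UV YUMM 1.1-9, with a synonymous change. At position 44821075 acT became acA, which leaves threonine 2645 as it was. The new base was seen in 8 of 49 reads, or 16.3% (7.32 to 29.7), against 0 of 57 reads in YUMM 1.1, a count that allows a share of up to 5.26% (exact interval 0 to 6.27). This codon lies between the PHD fingers and the C-terminal SET domain, which carries the methyltransferase activity. The Kmt2a changes of UV YUMM 1.1-9 and MB49 were 15.5 kb apart on the chromosome and 3502 bases apart in the coding sequence.

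Among the remodellers, Smarca4 (9:21616106-21704230, plus strand) was changed in YUMM 1.3, on the same chromosome as Dnmt1 and 0.789 Mb from its change. At position 21700978 gAg became gGg and glutamate 1557 became glycine (E1557G), in the C-terminal part of the protein, past the ATPase domain. It had 6 of 47 reads, or 12.8% (4.83 to 25.7), the lowest allele fraction of the 10 and the one nearest to the floors of its list, which held no site under 5 alternative reads or 10%. The intervals of Dnmt1 P1140A and Smarca4 E1557G do not overlap. The charge-removing exchange scored -2 in BLOSUM62, where 33.5% of the missense changes of YUMM 1.3 scored -2 or lower, and had no SIFT class.

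Chd7 (4:8690402-8868449, plus strand) was changed in UV YUMM 1.1-9 and in MB49 at sites 34 bases and 12 codons apart. In UV YUMM 1.1-9 Ggg became Agg at position 8855148 and glycine 2126 became arginine (G2126R). The exchange brings in a positive charge and scored -2 in BLOSUM62, where 33.0% of the 394 missense changes of this list scored -2 or lower. It had 6 of 32 reads, or 18.8% (7.21 to 36.4), against 0 of 44 reads in YUMM 1.1, which allows a share of up to 6.82% (exact interval 0 to 8.04). In MB49 ttC became ttT at position 8855114, which leaves phenylalanine 2114 as it was, with 22 of 46 reads, or 47.8% (32.9 to 63.1). Both codons lie C-terminal to the chromodomains and the helicase core. Across all pairs of lists, 51 pairs of different sites lay within 34 bases of each other. Sites shared by several lists were counted repeatedly in this number, for each pair of lists and in both orders. The distinct pairs are therefore fewer than 51. In 2 pairs each site was in a single list: this Chd7 pair and a pair in Ly6i, in YUMM 1.3 and MB49. That distance was taken from the Chd7 pair after its value was seen.

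Chd6 (2:160946978-161109086, minus strand), the relative of Chd7, was changed in UV YUMM 1.1-9. At position 160949815 Atg became Ttg and methionine 2541 became leucine (M2541L). It had 9 of 44 reads, or 20.5% (9.80 to 35.3), against 1 of 50 reads in YUMM 1.1, or 2.00% (0.0506 to 10.6). Of the 653 variants of UV YUMM 1.1-9, 575 had a lower allele fraction. The exchange scored 2 in BLOSUM62, a score that 97.2% of the missense changes of this list did not exceed, and SIFT called it tolerated with a score of 0.35. The exact intervals of UV YUMM 1.1-9 and YUMM 1.1 overlapped narrowly at the Chd6 and Chd7 sites and not at the Kmt2a site. All 3 sites had been selected for this contrast, so it was not tested.

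**Figure D1:**
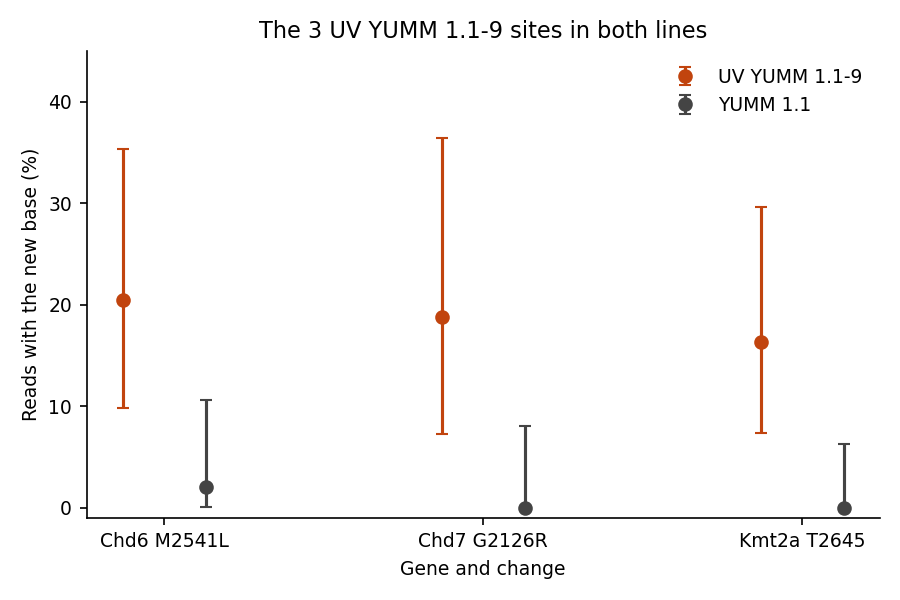
Share of reads with the new base (y axis, %) at the 3 sites listed for UV YUMM 1.1-9 (x axis), in UV YUMM 1.1-9 (left point of each pair) and in YUMM 1.1 (right point); bars are exact 95% intervals for counting error, 1 library per line. The shares lie between 16.3% and 20.5% in UV YUMM 1.1-9 and between 0% and 2.00% in YUMM 1.1.

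The corepressor gene Ncor1 (11:62315663-62457414, minus strand) was changed in both YUMM 1.1 and YUMM 1.3, at different sites 15.2 kb apart. In YUMM 1.1 cAt became cGt at position 62344729 and histidine 1364 became arginine (H1364R), with 24 of 117 reads, or 20.5% (13.6 to 29.0). In YUMM 1.3 Acc became Gcc at position 62329544 and threonine 2112 became alanine (T2112A), with 23 of 129 reads, or 17.8% (11.7 to 25.5). The intervals overlap over most of their length. T2112A lies in the C-terminal part, where Ncor1 binds nuclear receptors, and H1364R lies between that part and the N-terminal SANT domains. These were the most deeply covered of the 10 changes, whose depth otherwise ran from 32 to 49 reads. Both exchanges scored 0 in BLOSUM62 and neither had a SIFT class.

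Each site's allele fraction was then tested against 50%, the share of a change on 1 of 2 equal copies. An exact binomial test, two-sided, was run on every variant of a list and adjusted over the whole list by the Benjamini-Hochberg method. A site was called below or above 50% at an adjusted p of at most 0.05. In UV YUMM 1.1-9, 3 of 3 changes were called below 50% (exact test, Chd6 adjusted p = 0.000141, Chd7 adjusted p = 0.000652 and Kmt2a adjusted p = 3.54e-06), as was 97.2% of its list. The highest allele fraction of that list was 41.2%, so every variant in it lay under 50%, called or not. In YUMM 1.1, Ncor1 H1364R was called below 50% (exact test, adjusted p = 3.76e-10), as was 79.7% of the list. In YUMM 1.3, 3 of 4 changes were called below 50%, as was 75.1% of its list. They were Ncor1 T2112A (exact test, adjusted p = 1.70e-13), Smarca4 (adjusted p = 3.29e-07) and Kmt2b (adjusted p = 5.20e-06). These shares are near the background of each list.

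Dnmt1 P1140A was the exception and was called above 50% (exact binomial test, adjusted p = 0.0266). So were 2.67% of the YUMM 1.3 list, or 6 of 225 variants. The call was lost with Holm's adjustment of the exact test (adjusted p = 1). In MB49, 0 of 2 changes were called below 50%, where 22.6% of its list was. For Kmt2a C1478F the adjusted p was 0.451 and for Chd7 F2114 it was 1 in the exact test, with the wide intervals given above. MB49 also had the highest median allele fraction of the lists, 45.7%; it was 13.5% in UV YUMM 1.1-9, 19.4% in YUMM 1.3 and 24.9% in YUMM 1.1.

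**Figure D2:**
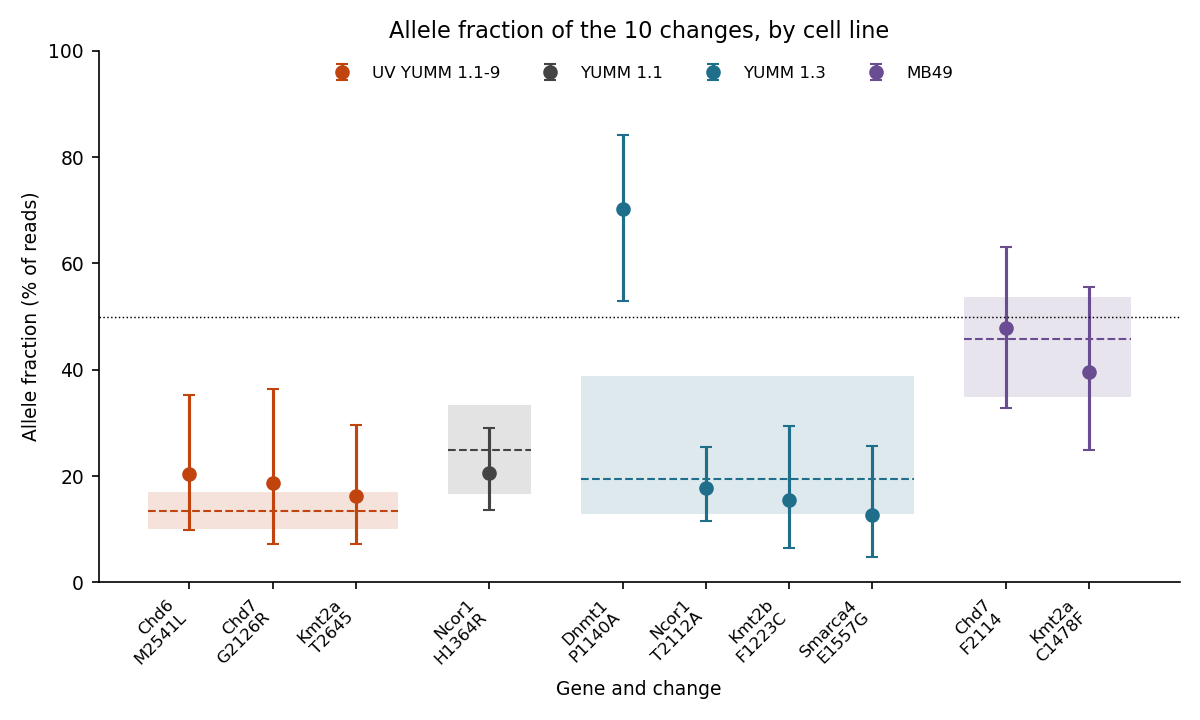
Allele fraction (y axis, % of reads) of the 10 changes (x axis) by cell line; points are single libraries with exact 95% intervals, shaded bands and dashed lines are the interquartile range and median of all variants of that line's list, and the dotted line is 50%. Dnmt1 P1140A stands at 70.3%, above the band of YUMM 1.3, while the other YUMM 1.3 changes lie between 12.8% and 17.8%.

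The variants listed nearest to each change on the chromosome lay from 0.0910 to 30.1 Mb away, so many are not local. Some have few reads. On the chromosome of Dnmt1 and Smarca4, YUMM 1.3 had 9 listed variants, with a median of 14.2% and a range from 11.5% to 70.3%. No variant was listed on the lower-coordinate side of Dnmt1 P1140A. Past Smarca4 E1557G the next was Olfr913 G147R, an odorant receptor change 16.9 Mb away, with 38.0%. Around Kmt2a C1478F in MB49, Arcn1 R434Q, in a coatomer subunit, had 10.7% at a distance of 0.0910 Mb, and Cep164 Q1187L, in a centriole protein, had 40.6% at 0.934 Mb. Around Kmt2a T2645 in UV YUMM 1.1-9, Atp5l F30L, in an ATP synthase subunit, had 38.9% (28.8 to 49.7) at 0.0937 Mb, and a synonymous change of Dpagt1 had 10.5% at 0.494 Mb. The interval of Arcn1 R434Q (4.03 to 21.9) does not overlap that of Kmt2a C1478F, while those of Atp5l F30L and Kmt2a T2645 overlap narrowly.

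The neighbours of the other changes lay further away. Those of Chd6 M2541L were Ralgapb H639Y with 12.8% at 2.51 Mb and Stk4 H162N, in a Hippo pathway kinase, with 17.8% at 3.14 Mb. Chd7 G2126R had a neighbour on 1 side, Casp8ap2 E915K, with 18.4% at 23.8 Mb. Chd7 F2114 lay between Vmn1r2 L101M, listed in 3 lines and with 10.6% in MB49, at 5.68 Mb, and Pou3f2 Y192F at 13.6 Mb. Pou3f2 Y192F had 58.3%, from 7 of 12 reads (27.7 to 84.8). Ncor1 H1364R lay between Flt4 K516T with 26.3% at 12.7 Mb and Myh1 K87R with 30.5% at 4.86 Mb. Ncor1 T2112A lay between Nprl3 R537H at 30.1 Mb and Myocd P398A at 2.86 Mb. Nprl3 R537H had 32.1%, from 9 of 28 reads (15.9 to 52.4). Myocd P398A had 45.5%, from 15 of 33 reads (28.1 to 63.6). Kmt2b F1223C lay between Ifnl3 K41T with 11.3% at 2.06 Mb and Gm21115 V764D, listed in 3 lines, with 44.4% in YUMM 1.3 at 7.86 Mb. Copy number was not measured here, so its part in any of these fractions was not tested.

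**Figure D3:**
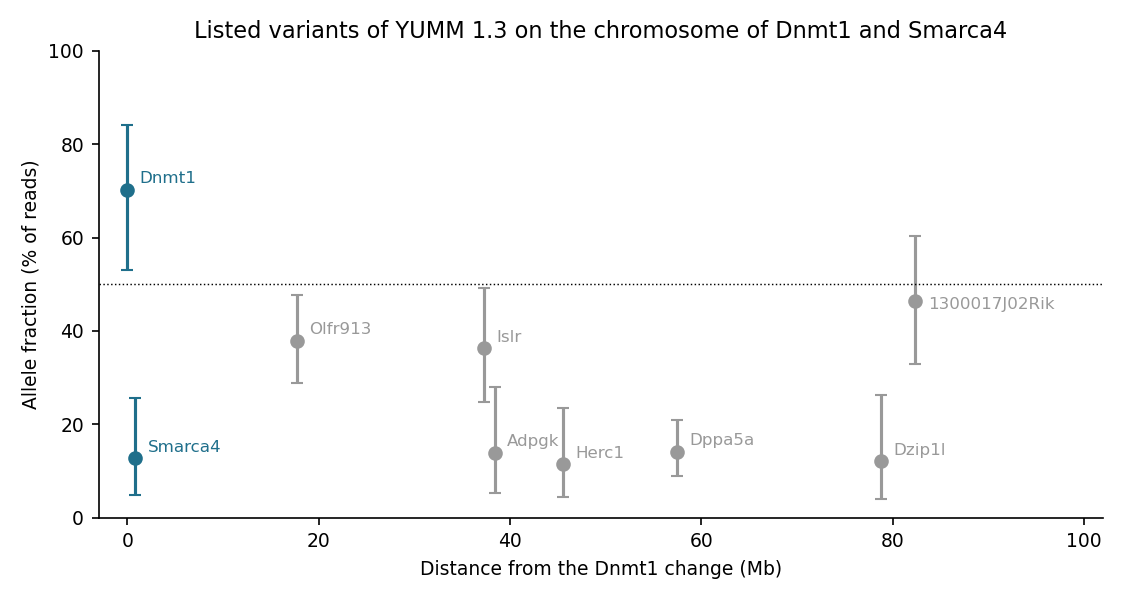
Allele fraction (y axis, % of reads) of the 9 listed YUMM 1.3 variants on the chromosome that carries Dnmt1 and Smarca4, by distance from the Dnmt1 change (x axis, Mb); bars are exact 95% intervals and the dotted line is 50%. Dnmt1 at 70.3% and Smarca4 at 12.8% lie 0.789 Mb apart, and the other 7 variants lie between 11.5% and 46.4%.

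The 10 changes covered all 6 substitution classes, named by whichever base of the changed pair is a pyrimidine. T>C was found in 3 (both Ncor1 changes and Smarca4), C>T in 2 (both Chd7 changes), T>A in 2 (Chd6 and Kmt2a T2645), and C>A (Kmt2a C1478F), C>G (Dnmt1) and T>G (Kmt2b) in 1 each. In UV YUMM 1.1-9, Chd7 G2126R belonged to the leading class of the list, C>T, with 43.2% of variants (exact interval 39.3 to 47.1). Read on the strand of the changed C, the codon shows a C before it, so the change lies in a dipyrimidine, the kind of site at which ultraviolet light is known to leave damage. A pyrimidine preceded the C in 160 of the 182 C>T changes of this list with a known base, or 87.9%. In MB49 it did so in 108 of 162, or 66.7%. Whether ultraviolet light caused any of the changes was not tested. The T>A changes made up 17.5% of the same list, and 54 of 71 followed a pyrimidine. Kmt2a T2645 was of this kind, with a C before the T, and Chd6 M2541L was not, with an A. The base after the T of Chd6 M2541L lies outside the codon and was not known.

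T>C made up 20.1% of the YUMM 1.1 list and 18.2% of the YUMM 1.3 list, and the base before the T was A in Ncor1 H1364R, G in Ncor1 T2112A and C in Smarca4 E1557G. The C>G class of Dnmt1 P1140A made up 11.1% of the YUMM 1.3 list and the T>G class of Kmt2b F1223C 12.9%. The C>T class, which led that list with 30.2%, held 0 of its 4 changes described here. In MB49, Chd7 F2114 was a C>T change after a T, as the codon shows. C>T made up 32.4% of that list, and C>A, the class of Kmt2a C1478F, made up 9.90%.

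**Figure D4:**
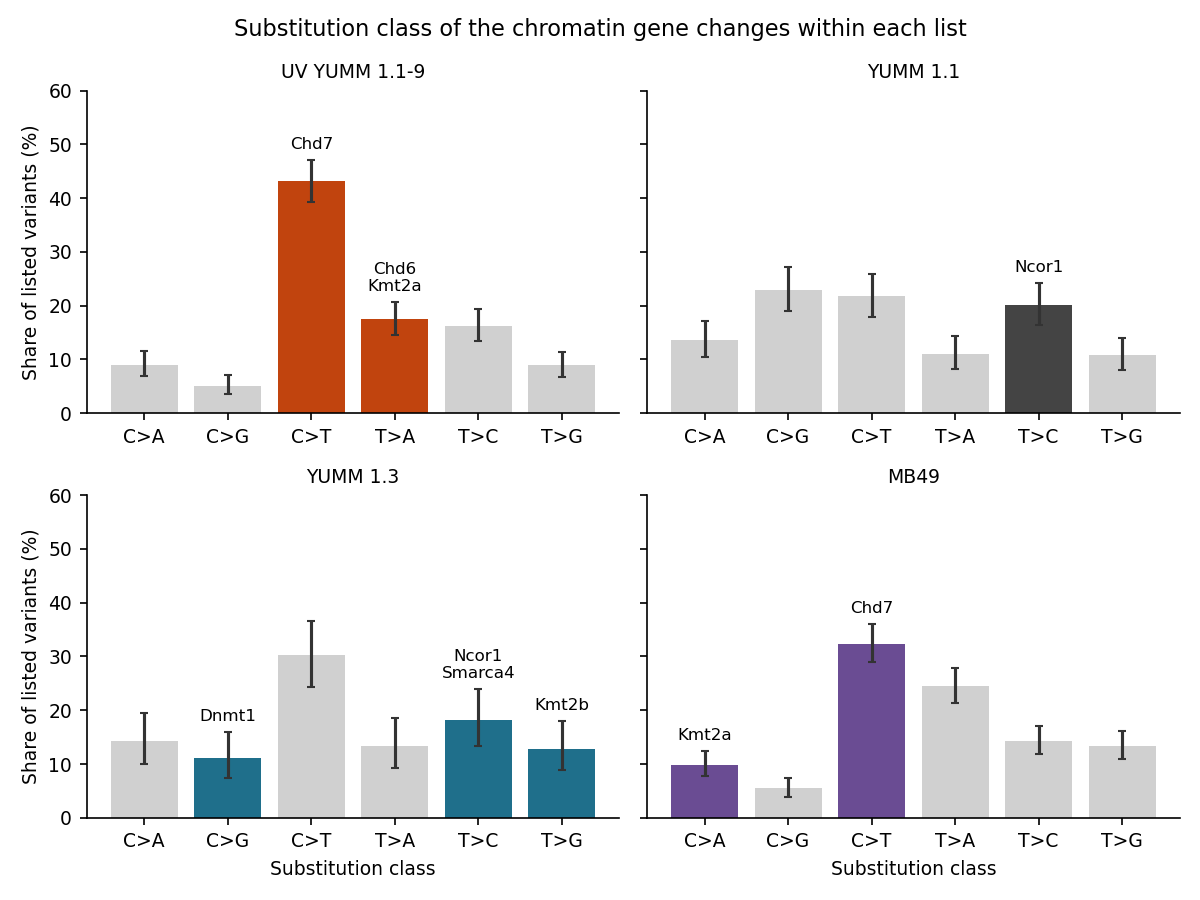
Share of listed variants (y axis, %) in each substitution class (x axis) for the 4 lines; bars carry exact 95% intervals, and coloured bars are the classes that hold a change of the genes written above them. The 10 changes fall in every class, with 2 of the 3 in UV YUMM 1.1-9 in T>A (17.5%) and 1 in C>T (43.2%).

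SIFT gave a class to few of these changes. Of the 8 missense changes 6 had none, 75%, against 12.97% of the 1365 missense changes of all lists. By line, 4.82% of missense changes had no class in UV YUMM 1.1-9, 21.3% in YUMM 1.3, 15.6% in MB49 and 14.7% in YUMM 1.1. Among 12 missense changes in other chromatin genes, 4 had none. The classes that were given, deleterious for Dnmt1 and tolerated for Chd6, stand beside shares of deleterious calls of 44.2% (exact interval 35.5 to 53.2) in YUMM 1.3 and 56.8% (51.6 to 61.9) in UV YUMM 1.1-9. Why a class is missing is not given in the sources used here, so the predicted effect of the Kmt2a, Kmt2b, Smarca4, Chd7 and Ncor1 changes is unknown.

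The changed codons had high residue numbers. Protein lengths were not compared. Protein positions of the 10 changes ran from 1140 to 2645, with a median of 1834.5, against a median of 279 over all listed variants. A position of 1140 or more was found for 8.12% of the variants of UV YUMM 1.1-9, 8% of YUMM 1.3, 11.6% of MB49 and 9.11% of YUMM 1.1. The spans of the genes ran from 20.2 kb for Kmt2b to 178 kb for Chd7, with a median of 88.1 kb. The median was 30.2 kb for the 1504 listed genes that matched the annotation and 17.1 kb for all protein-coding genes. The span of Kmt2b was thus below that of the median listed gene. Spans include introns and do not give the length of the coding sequence. No correction for gene length was made, and its part in the number of listed changes was not tested.

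None of the 10 sites was in more than 1 list, while 25.2% of the YUMM 1.1 list, 46.7% of the YUMM 1.3 list and 10.2% of the MB49 list were in another list as well. The list of UV YUMM 1.1-9 leaves out variants of YUMM 1.1 by design, which bears on its 3 changes. By gene, 3 of the 7 (Ncor1, Kmt2a and Chd7) had listed changes in 2 lines, 42.9%, against 4.19% of all listed genes when sites in more than 1 list were left out. The genes were chosen with these lists in view, so the 2 shares are given side by side and not tested. In each of the 3 genes the changes of the 2 lines differed in position and amino acid, and in Kmt2a and Chd7 1 of the 2 was synonymous.

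The wider set of chromatin genes was counted in the same way. Of 151 genes in 10 groups of chromatin regulators, 17 (11.3%) had a protein-changing variant in any list, the 7 genes described here included, where 5.16% of 21900 protein-coding genes had one. By line these were 6 genes in UV YUMM 1.1-9, or 3.97% of the set, where 1.84% of all protein-coding genes had one. YUMM 1.3 had 5 (3.31%, against 0.562% of all), MB49 had 4 (2.65%, against 2.14%) and YUMM 1.1 had 4 (2.65%, against 1.13%). Each of these counts includes genes selected for being listed. In YUMM 1.3 they are Dnmt1, Kmt2b, Smarca4 and Ncor1, and the only other gene counted is Prdm9. They are Chd6 and Chd7 in UV YUMM 1.1-9, Kmt2a in MB49 and Ncor1 in YUMM 1.1. The shares by line are therefore raised by that selection. The groups were written with the changes of the 7 genes known, and without these 7 the count is 10 of 144, or 6.94%. No test was made of these shares. By group, 2 of 13 DNA methylation genes had a protein-changing variant, 2 of 15 genes of H3K4 methyltransferase complexes, 1 of 26 SWI/SNF genes (Smarca4), 2 of 9 CHD genes and 3 of 23 corepressor and deacetylase genes. Another 3 of 12 ISWI, INO80 and related remodellers, 2 of 15 other histone methyltransferases, 1 of 9 acetyltransferases and 1 of 12 demethylases had one, and 0 of 17 Polycomb genes did. Every gene counted in the H3K4, SWI/SNF and CHD groups is among the 7 selected genes. Dnmt1 and Ncor1 are also counted, in the DNA methylation and the corepressor groups. The counts of these groups are therefore raised by the selection as well.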

How the data were processed

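Exome libraries of 4 mouse lines were examined through the deposited variant lists, with 1 library per line. Per the labels' protocols, mouse exons were captured (Agilent SureSelect) and read from both ends, 151 bases each, at an intended mean depth of 80X. Per the submitters' processing notes, the build was mm10 and the tools were BWA 0.7.5a, FastQC, SAMtools, Picard and GATK. The caller and its filters are not stated in any source used. Per the file headers, the authors deposited raw, whole-number read counts for the reference and for the new base beside the predicted consequence and SIFT class. Summed counts at listed sites were 34839 for UV YUMM 1.1-9, 48577 for YUMM 1.3, 72270 for MB49 and 63899 for YUMM 1.1.

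Repeated rows of a site were counted once. Classes came from the codon column, and 1 variant of UV YUMM 1.1-9 with an incomplete codon has none. Gene strand follows from codon and reference base, and symbols and gene spans come from RefSeq for GRCm38, the assembly also called mm10 (1504 of 1555 symbols matched). Intervals are exact (Clopper-Pearson) at 95%, and a count of 0 allows up to 3 reads of the total. Exact binomial tests used scipy 1.17.1 with a threshold of 0.05 and were checked on simulated counts. BLOSUM62 was taken from Biopython 1.88. Reads carry no molecular identifiers, so intervals cover counting error only. Domains are named from general knowledge, since no protein sequence was used. Named are the 7 genes, chromatin genes with a listed variant (1 is not reported here), and the nearest listed variant on each side of each change. The Ly6i pair was named after its values were seen. The members, gene groups and tests were chosen with earlier results of these data known. Alternatives were another expected value, a depth minimum, a floor on reads and allele fraction, variants found in no other list, Holm's adjustment, Wilson intervals, SIFT without low confidence classes and synonymous variants included.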

Additional observations from a re-analysis of the deposited data

How the results depend on the processing

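No paired analysis was possible because each line is 1 library. Depths of 32 to 49 reads at 8 of the 10 sites leave intervals at least 20.9 percentage points wide. Variants called below 50% numbered 635 in UV YUMM 1.1-9, 169 in YUMM 1.3, 160 in MB49 and 341 in YUMM 1.1. With the median of each list as the expected value they were 2 in UV YUMM 1.1-9, 27 in YUMM 1.3 and 59 in YUMM 1.1, which follows from that median lying under 50%. With variants found in no other list they were 86 in YUMM 1.3 and 103 in MB49, and with at least 5 alternative reads and 10% they were 364 in UV YUMM 1.1-9, each on fewer sites. Against the median of the list, Chd6 M2541L (6.94 percentage points), Chd7 G2126R (5.24) and Kmt2a T2645 (2.81) in UV YUMM 1.1-9 and Chd7 F2114 in MB49 (2.11) lay above it (exact binomial tests, adjusted p from 0.910 to 1). The 4 other changes that had been called below 50% kept that direction without passing (adjusted p from 0.452 to 0.799), and Dnmt1 P1140A lay 50.9 percentage points above it (exact test, adjusted p = 2.08e-10). How many YUMM 1.3 variants were called above that median was not counted, so this call has no background beside it. The upper quartile of that list was 38.8%. Holm's adjustment ended the calls of Dnmt1 P1140A (exact test, adjusted p = 1) and Chd7 G2126R (adjusted p = 0.0656). Genes of the chromatin groups with a protein-changing variant in UV YUMM 1.1-9 were 6, then 10 with synonymous variants and 1 at allele fractions of at least 20%, and in YUMM 1.3 they were 5 and then 1 at that fraction. T>G made up 18.3% of YUMM 1.3 variants found in no other list. The remaining 38 summary values stayed within 1.5 times or within their interval.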

Other observations

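Prdm9, a meiotic histone methyltransferase with an array of zinc fingers, carried W828R in both YUMM 1.1 (11 of 74 reads, 14.9%) and YUMM 1.3 (8 of 57 reads, 14.0%). Among the chromatin groups it was the site found in 2 lists. Setdb2 F204V in YUMM 1.1 had 39 of 65 reads, or 60% (47.1 to 72.0), and SIFT called it deleterious. Kat6a S954C in YUMM 1.1 had 39.2%, and Hdac11 D57N and Kdm5a S708F in MB49 had 33.8% and 33.3%.

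In UV YUMM 1.1-9 the other missense changes of the groups were Mbd3 G54A with 16.7%, Baz1a S1106T with 12.5%, Baz1b T448A with 19.4% and Srcap H3064Q with 16.7%. At each of these 4 sites YUMM 1.1 had 0 reads with the new base. Synonymous changes were listed in Chd4, Baz2b and Kdm2a in UV YUMM 1.1-9, in Mbd3 in YUMM 1.1, in Dnmt3a in YUMM 1.3 and in Chd9 in MB49. Mbd3, a subunit of the NuRD corepressor, was thus listed in both UV YUMM 1.1-9 and YUMM 1.1, at different sites.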
